A study of Neurospora crassa with 2 samples.

Results

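The hyphal fusion genes of Neurospora crassa described here are so and ham-2 to ham-9. They were chosen by symbol, and all 9 were found among the 10559 genes of the deposited table. Levels of polyA RNA were measured by mRNA-seq in hyphae of the wild type, grown in glucose medium in constant darkness for 12 hr (DD12) or 20 hr (DD20). The wild type strain of the study carries the bd allele, and both time points share this strain, the medium and the darkness. The table gives RPKM, the reads on a gene scaled by the length of its model and by the library total, in 1 column per time point, so no difference below has a replicate check, and no p-value was computed. RNA was prepared in duplicate from pools of independent samples, and whether a column holds 1 of the duplicates or both is not given in the sources used here.

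Neurospora grows as a network. Germinating conidia and older hyphae grow toward each other, touch and fuse, so that cytoplasm and nuclei flow through the colony. SO and the MAP kinase MAK-2 take turns at the tips of 2 partner cells while these grow toward each other, and HAM-5 is the scaffold that holds the kinases of the MAK-2 cascade together. HAM-2, HAM-3 and HAM-4 are subunits of the STRIPAK complex, an assembly built around protein phosphatase 2A, in which HAM-3 is the striatin. HAM-7 is a GPI-anchored surface protein that acts upstream of another MAP kinase, MAK-1. HAM-6 and HAM-8 are predicted membrane proteins, and HAM-9 is a cytoplasmic protein with a pleckstrin homology domain. Mutants that lack any of them are impaired in fusion.

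The RPKM values move in steps of whole reads, and the library totals that give these steps were 30712952 reads for DD12 and 29960356 for DD20. The counted length and the reads of each gene follow from the same steps. They are used here only for counting error, as 95% intervals on reads divided by 2, since even read numbers were in excess among genes of 1 to 10 reads (60.9% of 202 genes in the DD12 column and 59.0% of 205 in the DD20 column), as when both mates of a pair are counted. The intervals leave out variation between RNA pools. The labelled hyphae were checked with markers. The general markers act, hex-1, gpd-1 and Bml (β-tubulin) were all high, between 293 and 14155 RPKM at DD12. Of the 6 conidial markers, con-6, con-8, con-10, con-13 and fl lay between 0.318 and 6.90 RPKM at DD12, and the hydrophobin gene eas at 9199 RPKM. The summed level of the 6 was 9216 RPKM at DD12 and 7693 at DD20, nearly all of it from eas (9199 and 7682). The sum therefore says little of the others. Of these, con-6, con-8, con-10 and con-13 were lower at DD20, and fl was higher (6.90 and 7.72 RPKM). The summed level of 6 markers of sexual development was 6.02 and 4.36 RPKM. The conidial markers that averaged 1 RPKM or more were 4, and 3 of them were lower at DD20, such as con-6 at 6.43 and 1.64 RPKM. None of the markers was at 0. In bulk RNA, fewer cells of a type and less RNA per cell cannot be told apart, and the part of these cells in the results was not tested.

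All 9 fusion genes were expressed, and they formed a low and a high set. The high set was ham-8 and ham-7. RPKM is a level per length, so genes can be set side by side on it. At DD12, ham-8 had 57.0 RPKM, above 91.4% of all genes of the table, and ham-7 had 46.1 RPKM, above 89.4%. The other 7 genes lay between 8.16 RPKM (ham-5) and 13.3 RPKM (ham-6) at DD12, above 57.5% to 69.5% of all genes. These shares count all 10559 genes, of which 7414 were expressed (mean RPKM of at least 1) and 4127 had a mean of at least 10. Shares among expressed genes would be lower and were not computed, so the low set is not shown to be high among them. No gene of the 9 lay between 13.3 and 46.1 RPKM. At DD20 the gap was narrower, from 21.8 RPKM (ham-9) to 46.8 RPKM (ham-7). Thus ham-7 and ham-8 made up 57.1% of the summed RPKM of the 9 genes at DD12 and 47.4% at DD20.

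**Figure D1:**
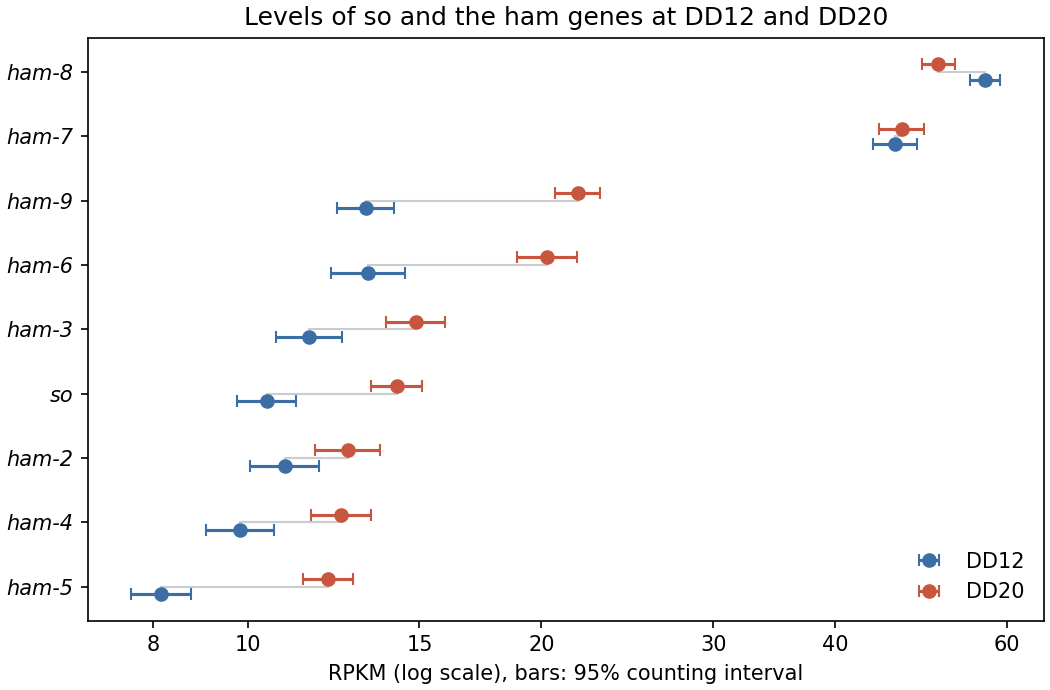
RPKM of so and the ham genes (x axis, log scale) at DD12 (blue) and DD20 (red), 1 value per time point, with bars for the 95% counting interval. The genes ham-7 and ham-8 stand above 46 RPKM at both time points, while the other 7 lie below 22 RPKM and to the right at DD20.

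Between DD12 and DD20, 8 of the 9 fusion genes were higher at DD20 and 1, ham-8, was lower. The changes were small. None reached 2-fold in either direction, against 3.08% of the 7414 expressed genes (mean RPKM of at least 1), of which 0.742% were higher at DD20 by that much and 2.33% higher at DD12. The log2 ratio used throughout compares RPKM + 1 at DD20 with RPKM + 1 at DD12. The median log2 ratio was 0.34 over the 9 fusion genes and 0.15 over all expressed genes, of which 66.2% were higher at DD20 and 33.8% lower. That share depends on the scaling, as 60.9% were higher with libraries rescaled over all genes and 46.4% with libraries rescaled without the 10 most abundant genes. The fusion genes were also set beside expressed genes within their own range of level and span. Of 1614 expressed genes with a mean RPKM of 10.1 to 54.0 and a RefSeq span of 2327 to 6573 nt, 73.2% were higher at DD20 and the median was 0.19. With only 9 genes, 8 higher is not far from this background, and the direction alone is not a result about the fusion genes. The 95% counting interval of the ratio lay above 0 for 7 of the 9, against 44.4% of 7383 expressed genes with recovered reads, and 57.7% of those in the same range of level and span. It lay below 0 for ham-8, against 18.3% of all, and it spanned 0 for ham-7.

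**Figure D2:**
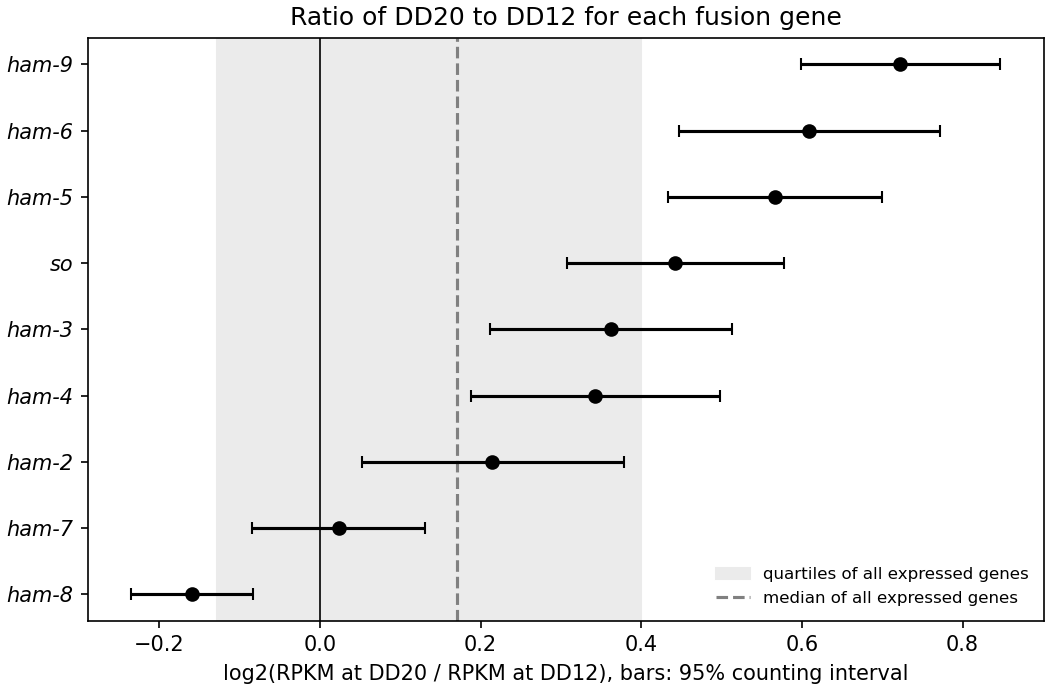
The log2 ratio of DD20 to DD12 without the added 1 for each fusion gene (x axis), with bars for the 95% counting interval, beside the median (dashed) and the range from the lower to the upper quartile (grey) of 7412 expressed genes above 0 at both time points. From ham-9 at 0.72 to ham-8 at -0.16 the genes spread across the grey band, and ham-9, ham-6 and ham-5 have whole intervals above its upper edge of 0.40.

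Among the genes of the MAK-2 signal, so had 10.5 RPKM at DD12 (1573 reads on 4895 nt) and 14.2 RPKM at DD20 (2085 reads). The level of so was thus 1.36-fold higher at DD20. Its log2 ratio with 1 added was 0.41, higher than that of 80.1% of expressed genes. The scaffold gene ham-5 had 8.16 RPKM at DD12 (1568 reads on 6255 nt) and 12.1 RPKM at DD20 (2265 reads). It was the lowest of the 9 at both time points, but its fold of 1.48 was the third highest. Its log2 ratio with 1 added was 0.51. RefSeq lists 2 transcripts for ham-5, which a single value per gene does not separate. Without the added 1, the log2 ratio was 0.44 for so, with a counting interval of 0.31 to 0.58, and 0.57 for ham-5, with an interval of 0.43 to 0.70. These intervals overlap, so they do not tell so and ham-5 apart.

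The STRIPAK genes stayed close together, but they did not stand apart from the gene so. With 10.5 RPKM at DD12 and 14.2 at DD20, so lay within their range, and its ratio interval overlapped those of all of them. For ham-2 the values were 10.9 RPKM at DD12 and 12.7 RPKM at DD20. For ham-3, the striatin gene, they were 11.6 RPKM (1304 reads) and 14.9 RPKM (1635 reads). For ham-4, which encodes a protein with a forkhead-associated domain, they were 9.83 RPKM (1235 reads) and 12.5 RPKM (1528 reads). The log2 ratios were 0.20 for ham-2, 0.34 for ham-3 and 0.31 for ham-4, and without the added 1 their counting intervals overlap, at 0.21 to 0.51 for ham-3 and 0.19 to 0.50 for ham-4. The reads of ham-2 are less certain, because every multiple of 158 nt fits its values as a length. At the shortest such length of at least 80% of the RefSeq span, 3476 nt, it had 1166 and 1320 reads, and its interval, taken at that length and without the added 1, was 0.052 to 0.38. At the longest, 4108 nt, it had 1378 and 1560 reads. Its interval was the only one of the 9 that held the median of all genes on the same scale (0.17).

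The surface and membrane genes did not move together. The gene ham-7 had 46.1 RPKM at DD12 (2807 reads on 1984 nt) and 46.8 RPKM at DD20 (2783 reads), a log2 ratio of 0.023. Its interval without the added 1, -0.085 to 0.13, limits a change to these bounds as far as counting goes. For ham-8 the level was 57.0 RPKM at DD12 (6100 reads on 3486 nt) and 51.0 RPKM at DD20 (5329 reads), a log2 ratio of -0.16, with an interval, again without the added 1, of -0.23 to -0.084. In contrast, ham-6 had 13.3 RPKM at DD12 (1042 reads on 2553 nt) and 20.3 RPKM at DD20 (1550 reads). That was 1.52-fold higher at DD20, and the log2 ratio with 1 added was 0.57. Without the added 1 it was 0.61, and its interval of 0.45 to 0.77 did not overlap those of ham-7 and ham-8. Thus ham-6 differed from ham-7 and ham-8 in both its level and its ratio.

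The largest ratio of the 9 belonged to ham-9. It had 13.2 RPKM at DD12 (1715 reads on 4226 nt) and 21.8 RPKM at DD20 (2760 reads), which is 1.65-fold higher, and its log2 ratio with 1 added, 0.68, was above that of 95% of expressed genes. Without the added 1 the ratio was 0.72, with an interval of 0.60 to 0.85. This interval lay apart from those of 6 of the other 8 genes and overlapped those of ham-5 and ham-6.

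**Figure D3:**
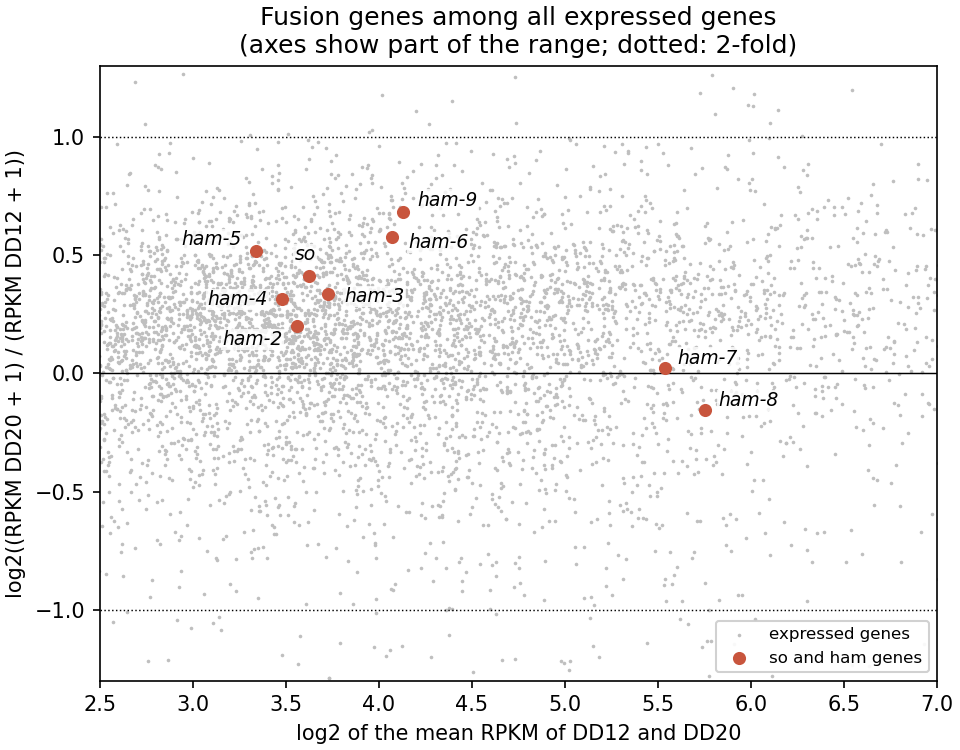
Each expressed gene by the log2 of its mean RPKM (x axis) and its log2 ratio of DD20 to DD12 with 1 added (y axis), with the 9 fusion genes in red and dotted lines at 2-fold. Genes outside the axes are not drawn, and the fusion genes all lie inside the 2-fold lines, with ham-9 at 0.68 the highest and ham-8 at -0.16 the lowest.

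The differences among the 9 ratios do not depend on how the libraries were scaled, apart from the added 1, because a scaling factor moves all genes of a column alike. Of the 36 pairs of fusion genes, the counting intervals of 19 lay apart. For ham-8 this was so in 7 of its 8 pairs, all but that with ham-7, and for ham-7 and ham-9 in 6 of 8 each. How many pairs of other expressed genes lie apart was not computed, so these counts are not a result about the fusion genes. Overlap does not show that genes are alike, since values can differ beyond counting error while their intervals overlap. Relative to the median of all genes without the added 1 (0.17), the interval lay above it for 6 genes (ham-9, ham-6, ham-5, so, ham-3 and ham-4), against 27.9% of expressed genes. It lay below it for ham-7 and ham-8, against 28.4%. Both shares are over all expressed genes with recovered reads and were not computed for genes of like level and span. The share with an interval above 0 was 57.7% among genes of like level and span and 44.4% over all. The shares over all genes are therefore not a like-for-like background for the 9.

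The order of the levels was also read by whether the counting intervals of neighbours overlap, a strict rule for telling levels apart. At DD12 it ran from ham-8, ham-7, ham-6, ham-9, ham-3, ham-2, so and ham-4 down to ham-5. Neighbours whose intervals lay apart were ham-8 and ham-7, ham-7 and ham-6, and ham-4 and ham-5. At DD20 the order was ham-8, ham-7, ham-9, ham-6, ham-3, so, ham-2, ham-4 and ham-5, and only the neighbours ham-7 and ham-9, and ham-6 and ham-3, lay apart. The exchanges between ham-6 and ham-9 and between so and ham-2 were therefore exchanges of neighbours whose intervals overlap. The interval of ham-5 overlapped that of ham-4 at DD20 but not at DD12.

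Other genes of hyphal fusion were taken from lists of symbols, of which 29 of 48 matched a gene of the table outside the 9, and all 29 were expressed. Of these, 25 were higher at DD20 and 4 were lower, none by 2-fold, and the median log2 ratio was 0.28. The counting interval lay above 0 for 23, below 0 for 3 and spanned 0 for 3. The directions in the lists were not computed with rescaled libraries. Small ratios could change sign there, as that of ham-7 did. Over all expressed genes the median was 0.15, 66.2% were higher at DD20 and 3.08% reached 2-fold, and of those in the level and span range of the 9 genes 73.2% were higher. Some listed genes lie outside that range of level, such as nfh-2 (466 and 547 RPKM) and ham-10 (6.06 and 6.93 RPKM). No background of like level and span was computed for the lists. The counts of the short lists below are therefore only set beside these shares and are not a result about the lists. In the MAK-2 cascade all 4 genes matched were higher, from nrc-1, the kinase at its top, at 0.15 (11.8 to 13.2 RPKM) to mak-2, its MAP kinase, at 0.44 (104 to 141 RPKM). The ratio of mak-2 was near those of so and ham-5, which encode its partner at the tip and its scaffold, but its level at DD12 was far above theirs. The genes listed as transcription factors were all 6 higher, from ada-3 at 0.18 to adv-1, needed for fusion, at 0.46 (23.0 to 31.9 RPKM). The list includes pp-1, the target of MAK-2, at 0.40, which is also 1 of the 4 genes of the MAK-2 cascade. It is thus counted in both lists.

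In the MAK-1 cascade, on which HAM-7 acts, 4 of 6 genes were higher and 2 were lower. The kinase genes mik-1, mek-1 and mak-1 had log2 ratios of 0.19, 0.35 and 0.33. The lowest was wsc-1, a cell wall stress sensor gene, at -0.28 (200 to 164 RPKM, interval without the added 1 -0.33 to -0.23). The log2 ratio of pkc was -0.061, with an interval that spanned 0.

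Of the genes listed as STRIPAK partners, all 4 matched were higher, from mob1-2 (mob-3 by its synonym) at 0.054 (10.2 to 10.6 RPKM) to pp2A at 0.34 (12.1 to 15.6 RPKM). The interval of mob1-2 without the added 1, -0.12 to 0.24, spanned 0. At DD12, mob1-2 and pp2A were near the 9.83 to 11.6 RPKM of ham-2, ham-3 and ham-4, while pph-1 and rgb-1 stood at 58.8 and 52.7 RPKM. Whether the products of pph-1 and rgb-1 belong to this complex was not tested. The NADPH oxidase genes, for enzymes that make reactive oxygen, went both ways. The oxidase gene nox-1 had 12.4 RPKM at DD12 and 21.2 RPKM at DD20, a log2 ratio of 0.73. Its regulator gene nor-1 had 40.2 and 30.6 RPKM (-0.38), and nox-2, for another oxidase, had 34.0 and 19.1 RPKM (-0.80). The pair of values of nox-1 was close to that of ham-9.

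Among the other fusion genes, all 6 matched were higher at DD20. The highest ratio of any was that of prm-1, which encodes a membrane protein of the step at which the plasma membranes merge. It went from 69.9 RPKM at DD12 (4085 reads) to 137.8 RPKM at DD20 (7854 reads), a log2 ratio of 0.97, just under 2-fold. The gene ham-10, the only further ham symbol matched, had 6.06 and 6.93 RPKM (0.17), lower than all 9 fusion genes at both time points. The lowest ratio was that of amph-1 (0.0037), with an interval without the added 1 that spanned 0 (-0.13 to 0.13). The only polarity gene matched, rac-1, had 0.28.

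**Figure D4:**
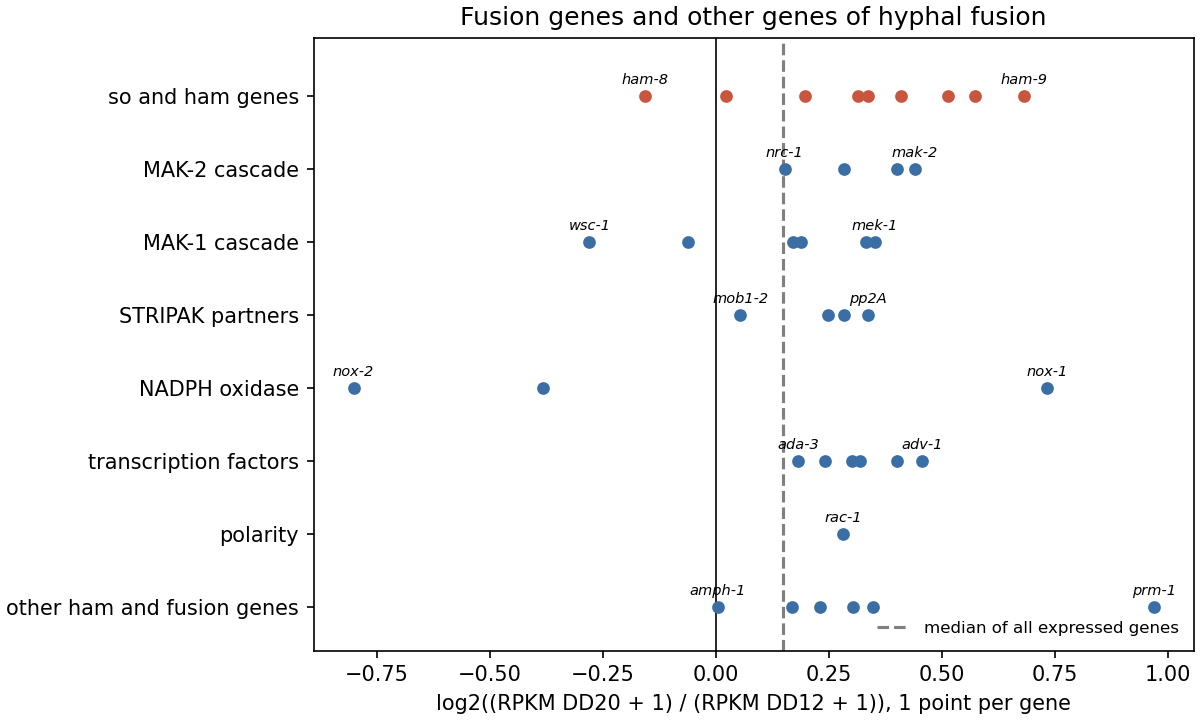
The log2 ratio of DD20 to DD12 with 1 added (x axis) for the 9 fusion genes (red) and the matched genes of each list (blue), 1 point per gene, with the lowest and the highest of each row named and the median of all expressed genes dashed. Most points lie to the right of 0, the NADPH oxidase genes run from -0.80 to 0.73, and prm-1 at 0.97 is the farthest to the right.

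The genes with a symbol whose pair of values was most like that of each fusion gene were sought among 1062 expressed genes, by the distance between log2(RPKM + 1) at both time points. As this rests on 2 values per gene, it describes only level and ratio. Nearest to so was gh63-1 (10.1 and 14.6 RPKM, a distance of 0.053). Nearest to ham-9 was frh, for the RNA helicase that pairs with the clock protein FRQ (12.7 and 22.5 RPKM, a distance of 0.073), and nearest to ham-6 was prd-6, a gene named for its period mutant (12.8 and 20.2 RPKM, a distance of 0.051). The calcium channel gene mid-1 was the nearest to ham-3, at a distance of 0.0082 the closest match of all. Of the others, pex16 was nearest to ham-2 (0.023) and rtg2 to ham-5 (0.030). The sulfate permease gene cys-14 was nearest to ham-7 (0.022) and the thioredoxin gene trx to ham-8 (0.098). For ham-4 it was a gene given only as a Sec1 family member (0.035). Only the match of ham-8 was farther than that of frh to ham-9, and a link of these genes to the clock was not tested.

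The genes next to the fusion genes in the RefSeq annotation had ratios close to those of all genes at their median. Of the 18 neighbours, 13 were expressed, with a median log2 ratio of 0.16, against 0.15 over all. By direction, 11 of the 13 were higher at DD20, against 66.2% of all expressed genes. The neighbours of ham-8 were NCU02812 (33.5 and 34.4 RPKM) and NCU02810 (98.8 and 151 RPKM), neither of them lower at DD20. Beside ham-7, NCU00882 had 1.03 and 2.24 RPKM and NCU00880 22.3 and 23.3 RPKM. Beside ham-9, NCU07390 was listed at 0 at DD12 and at 0.685 RPKM at DD20, and NCU07388 had 7.90 and 8.29 RPKM, a log2 ratio of 0.062 against 0.68 for ham-9.

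With the libraries rescaled, the size of each ratio moved but the order of the 9 did not. In all 8 settings run, the one reported included, ham-9 had the highest ratio, followed by ham-6, ham-5, so, ham-3, ham-4, ham-2, ham-7 and ham-8, and 7 genes lay above the median of all genes and 2, ham-7 and ham-8, below it. As scaling and centring move all genes of a column by 1 factor, this order is largely fixed by how the settings are made. The ratio of ham-7 changed sign, to -0.13 with centred ratios, -0.037 with libraries rescaled over all genes and -0.17 with libraries rescaled without the 10 most abundant genes. The ratio of ham-2 was 0.012 in the last of these.

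**Figure D5:**
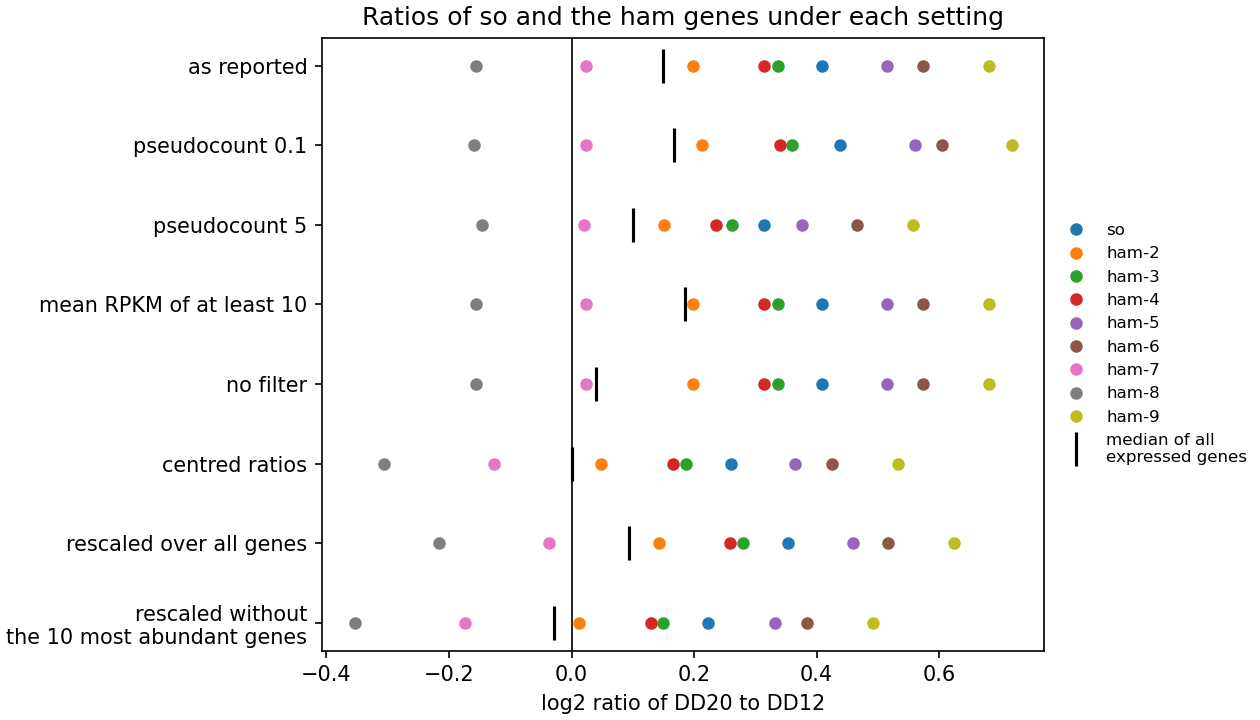
The log2 ratio of DD20 to DD12 (x axis) of each fusion gene (coloured points) under each setting (rows), with a black bar for the median of all genes kept. In every row ham-7 and ham-8 lie to the left of the bar and the other 7 genes to its right.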

How the data were processed

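The authors deposited RPKM values per gene for WT at DD12 and DD20, which divide the reads on a gene model by its length and the library total. The submitters' processing notes name CASAVA 1.8 and HISAT. How reads were counted, whether strand was used and which genome build was taken are not given in the sources used here, so no coordinates are reported, and overlapping genes may share reads. No sequences were used here. Symbols and spans came from RefSeq assembly NC12, which had entries for 10526 of 10559 genes.

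Library totals were recovered from the steps of low values, and gene lengths as whole numbers from 30 nt to the RefSeq span at which both columns give whole reads. All 8726 genes above 0 at both time points and with a RefSeq entry fitted, against 0.760% of 6053 with a wrong total. The wrong total was tried on 6053 genes only, so these shares are over different sets and are not a like-for-like comparison. On simulated data for 10526 genes, 100% of 7424 unique lengths were right, and 100% of 200 genes changed 4-fold were called. The simulation held counting noise only, so a 4-fold change was nearly sure to pass 2-fold. Smaller changes and variation between RNA pools were not simulated. Intervals were exact (Clopper-Pearson for ratios, Poisson for levels). Genes whose RPKM averaged at least 1 over the columns were kept, 1 was added before log2, and called means 2-fold.

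All 9 members are named. Of each list of other fusion genes the highest and lowest ratios are named, with further genes whose roles adjoin a member's. For each member the gene with the nearest pair of values, and some neighbours, are named too. Members and lists were chosen with earlier results of these data known, and the 80% length rule, the genes of like level and span and the median line as a reference were chosen after the values were seen. Pseudocounts of 0.1 and 5, other filters, centring and rescaling (to the mean of the column sums) were tried. Python 3.11.15, pandas 2.3.3, numpy 2.4.6, scipy 1.17.1 and matplotlib 3.10.9 were used.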

Additional observations from a re-analysis of the deposited data

How the results depend on the processing

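No paired analysis was possible because each time point has a single column, for which leaving out a replicate does not apply. No fusion gene reached 2-fold in any of the 7 alternatives. The number lower at DD20 was 1 and became 2 with centred ratios, with libraries rescaled over all genes and with libraries rescaled without the 10 most abundant genes, as ham-7 changed sign. The median log2 ratio of the 9 genes moved from 0.34 to 0.19 with centred ratios and to 0.15 without the 10 most abundant genes, where the median of all genes was -0.028. Of 63 single-gene values, 16 moved beyond counting error and 3, all of ham-7, changed sign. The 63 include the values under the other filters, which could not move because all 9 genes pass them. Among all genes, 55 were higher by 2-fold at DD20 and 173 at DD12. The numbers were 99 and 241 with a pseudocount of 0.1, 29 and 91 with 5, 31 and 256 with centred ratios, and 27 and 269 without the 10 most abundant genes. The number higher at DD12 was 102 at a mean RPKM of at least 10, where fewer genes pass. The share of these calls that were higher at DD20 was 24.1%, and 10.8% after centring and 9.12% after rescaling without the 10 most abundant genes. Causes were not tested. The depth limits a single ratio to about its counting interval, and variation between RNA pools cannot be told apart from the difference between the time points.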
